A study of Mus musculus with 2 samples.

Results

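The Fc gamma receptor genes of the mouse were examined in cells sorted from bone after ovariectomy or sham surgery. They were taken by symbol from the gene table of the library, and all 5 were found among its 32285 genes, of which 18802 had at least 1 UMI (a unique molecular identifier, which marks 1 captured transcript). Fcgr1, Fcgr3 and Fcgr4 encode the activating receptors, Fcgr2b encodes the inhibitory receptor, and Fcer1g encodes the signalling chain that the activating receptors share.

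Female BALB/c mice, 10 weeks old at surgery, underwent bilateral ovariectomy (OVX) or a sham operation and received no other treatment. Cells were released from femurs and vertebrae 4 weeks later by trypsin and then collagenase D, and were sorted with antibodies to CD11b, F4/80 and CD68 as osteal macrophages. The OVX and sham cells were each a pool of mice and were given a hashtag antibody each. They were run together in 1 droplet library of 3′ transcript counts. The study states 1037 OVX and 1084 sham cells as loaded. That is fewer OVX cells than the 1059 called below, and the difference was not resolved. The deposited table held 2349 cell barcodes, of which the hashtags placed 1059 in OVX and 981 in sham, with 78 carrying both hashtags and 231 neither. The first hashtag was taken as OVX and the second as sham. The methods of the study do not say which hashtag marked which condition, and every OVX to sham direction below rests on this choice. With 1 pool of mice per condition there was no replicate and hence no test between conditions. All intervals are 95% intervals, cover counting error only, and say nothing of the spread between mice or between the cells of a cluster. They are exact for levels, percents and single ratios, but not for differences of percents or for ratios at equal cluster weights. Where nothing was found, the limit given is that of 3 counts.

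Fc gamma receptors bind the constant part of immunoglobulin G and so connect antibody-coated targets to phagocytes. The activating receptors signal through the paired tyrosines of an immunoreceptor tyrosine-based activation motif (ITAM), which in mice lies on the Fcer1g chain, and Src and Syk family kinases act there. Fcgr2b carries an inhibitory motif (ITIM) of its own that recruits the lipid phosphatase Inpp5d, and the balance between the 2 kinds of receptor sets how strongly a cell answers an immune complex. In bone, immune complexes acting through these receptors are known to influence osteoclast formation and inflammatory bone loss.

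Of the 5 genes, 4 lay within 275749 bases of chromosome 1 in the GRCm38 build. Fcgr2b (ENSMUSG00000026656) was at chr1:170958617-170976547 on the minus strand, Fcgr4 (ENSMUSG00000059089) at chr1:171018920-171029761 on the plus strand, Fcgr3 (ENSMUSG00000059498) at chr1:171051174-171064935 on the minus strand and Fcer1g (ENSMUSG00000058715) at chr1:171229572-171234365 on the minus strand. Fcgr1 (ENSMUSG00000015947), the high affinity receptor, was apart at chr3:96282909-96293969 on the minus strand. In the annotation Fcgr2b was overlapped on the other strand by Gm38204, and Fcgr3 and Fcgr4 were overlapped on their own strand by Mir6546 and Gm26110. Counts of these genes could include reads of the genes on the same strand.

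The sequences that separate activating from inhibitory signalling are shown from the coding exons of the GRCm38 annotation, read 5′ to 3′ on the minus strand of the gene, with the tyrosine codons of each motif in capitals. The ITAM of Fcer1g spans exons 4 and 5 of 5 at chr1:171229889-171230072, with an intron between them, and has 2 such codons in 45 bases. The ITIM of Fcgr2b lies in exon 8 of 8 at chr1:170961071-170961088 and has 1 in 18 bases.
Fcer1g ITAM: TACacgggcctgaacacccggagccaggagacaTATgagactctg
Fcgr2b ITIM: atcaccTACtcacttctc
The ITAM pattern was present in the translated coding sequence of 631 of 21587 genes (2.92%) and, of the 5 members, only in Fcer1g. The ITIM pattern is short and was present in 10719 genes (49.7%), Fcgr1, Fcgr4 and Fcer1g among them, so that a match to it is a description of letters and no evidence of an inhibitory site.

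Fcgr3 and Fcgr2b are close relatives, and whether their reads could be mixed bears on every ratio between them. Their transcripts shared an identical stretch of 129 bases in the coding part of exons 3 and 4 of both genes, printed here because it is the longest run that a read could not assign.
Fcgr2b and Fcgr3 shared run: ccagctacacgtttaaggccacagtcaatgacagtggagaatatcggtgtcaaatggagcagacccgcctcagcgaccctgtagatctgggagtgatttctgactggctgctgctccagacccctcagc
This run lay 3014 bases from the 3′ end of the Fcgr2b transcript and 906 bases from that of Fcgr3. In the last 500 bases, which 3′ libraries mainly read, the longest run shared by these genes was 9 bases. No other pair of members shared more than 14 bases anywhere.

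Cells were grouped by expression with the 5 members and the genes of the signalling lists left out, so that the receptors did not shape the groups. In 5 of the groups, 2049 cells in all, the summed level of the 6 neutrophil markers ran from 161316 to 330228 CPM (CPM, the UMIs of a gene per 1000000 UMIs), and each marker was at 50 CPM or more. Each marker also reached 50 CPM in the group of 61 cells and the low-depth barcodes described next, but with sums of 25113 and 11210 CPM. The 5 groups are called here the cycling neutrophil-like cells (65 cells, Mki67 at 682 CPM), the Ltf-high neutrophil-like cells (290 cells, with secondary granule genes summing to 34352 CPM), the stefin-high neutrophil-like cells (510 cells, stefin genes 14195 CPM), the Retnlg-high neutrophil-like cells (624 cells, Retnlg at 22063 CPM) and the Ccl3/Ccl4-high neutrophil-like cells (560 cells). Secondary granule genes, which are made by immature neutrophils, declined in the order Ltf-high, stefin-high, Retnlg-high and Ccl3/Ccl4-high (34352, 6774, 5337 and 807 CPM summed), and late neutrophil genes ran the other way (2404, 5708, 5892 and 8405 CPM summed). This order is a description of marker levels over all cells and not a time course. Within OVX cells stefin-high and Retnlg-high cells changed places for the secondary granule genes (5548 and 6132 CPM). Within sham cells they did not (17568 and 4913 CPM), and the late neutrophil genes kept the order in both conditions. The clusters differed in make-up, the stefin-high holding 413 OVX and 67 sham cells and the Retnlg-high 172 and 385, so levels over all cells are given below with those within each condition where the order of the clusters differs.

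Transcripts of macrophage markers stood out in few cells. The sort used antibodies to proteins, which were not measured here, so which cells met the sort label cannot be told from these data. A group of 61 cells held Arg1 at 6662 CPM and Msr1 at 1153 CPM. Cd68 was at 255, Csf1r at 98.9 and Adgre1, which encodes F4/80, at 46.9 CPM. These were the highest values of any cluster, the next being 80.4, 30.7 and 37.0 CPM. C1qa, C1qb and C1qc were at 0, and at 0.902 CPM or less in every cluster. The leading genes of the 61 cells included the platelet factors Pf4 and Ppbp while Itga2b and Gp9 were at 0. The group was therefore not given a cell type and is called the Pf4/Arg1 cluster. Neutrophil markers summed to 25113 CPM in it. The remaining cells were 210 stromal-like cells, which should lack these receptors, and 29 barcodes led by mitochondrial genes.

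Fcgr3 was the main activating receptor transcript in every group that carried the receptors. The Fcgr3 level was 220 CPM (193 to 250) in cycling, 430 (404 to 458) in Ltf-high, 694 (668 to 722) in stefin-high, 972 (935 to 1010) in Retnlg-high and 1257 (1206 to 1310) in Ccl3/Ccl4-high neutrophil-like cells. No pair of neighbours in this order had overlapping intervals, and the order was that of the late neutrophil genes. It was the same within OVX and within sham cells, although in sham the Ltf-high level of 489 CPM (450 to 529) and the stefin-high level of 557 (482 to 639) overlapped. The Pf4/Arg1 cluster was at 705 CPM (638 to 777), overlapping the stefin-high cells. Fcgr3 made up between 84.1% and 97.4% of the activating receptor UMIs over these 6 groups, the highest share being that of the Ccl3/Ccl4-high cells.

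Fcgr4, which binds IgG2a and IgG2b, was much lower than Fcgr3 and ran in another order. Its level was 77.0 CPM (66.2 to 89.2) in Ltf-high, 70.5 (60.7 to 81.3) in Retnlg-high and 65.8 (57.8 to 74.6) in stefin-high cells, and these 3 did not differ beyond their intervals. It was lower in cycling cells at 34.3 CPM (24.3 to 47.1), in Ccl3/Ccl4-high cells at 33.2 (25.2 to 42.8) and in the Pf4/Arg1 cluster at 19.1 (9.53 to 34.2), which again overlapped each other. The cycling value was between 49.5 and 54.3 CPM in 5 alternatives that changed the clustering or left out barcodes, near the stefin-high level, so its place in this order was not stable. Fcgr4 thereby formed 15.2% of the activating UMIs of Ltf-high cells and 2.57% of those of Ccl3/Ccl4-high cells.

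Fcgr1, which encodes the high affinity receptor CD64 and is commonly used to mark macrophages, had 69 UMIs in the whole library, and 44 of them were in the 61 cells of the Pf4/Arg1 cluster. The Fcgr1 level there was 76.4 CPM (55.5 to 103), against 7.22 (3.12 to 14.2) in cycling and 3.51 (1.87 to 6.0) in stefin-high cells. In the Retnlg-high cells no UMI was found, which allows up to 1.12 CPM for 3 UMIs. The Pf4/Arg1 value rested on few cells, since 27.9% of them had a UMI, 1 cell held 11 of the 44 and the top 3 cells held 50%.

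Fcgr2b, the inhibitory receptor, was highest in the Ccl3/Ccl4-high cells at 433 CPM (403 to 465) and in the Pf4/Arg1 cluster at 387 (338 to 441), which overlapped. Stefin-high cells followed at 226 CPM (211 to 241) and Retnlg-high cells at 160 (145 to 176). Cycling cells at 88.4 CPM (71.8 to 108) and Ltf-high cells at 84.3 (73.0 to 97.0) did not differ beyond their intervals. The order of stefin-high and Retnlg-high cells differed by condition. In OVX cells Fcgr2b was at 237 CPM (221 to 255) in stefin-high and 179 (152 to 209) in Retnlg-high cells. In sham cells it was at 125 (91.4 to 168) and 150 (131 to 170), which overlapped. Fcgr3 was lower in stefin-high than in Retnlg-high cells in both conditions.

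**Figure D1:**
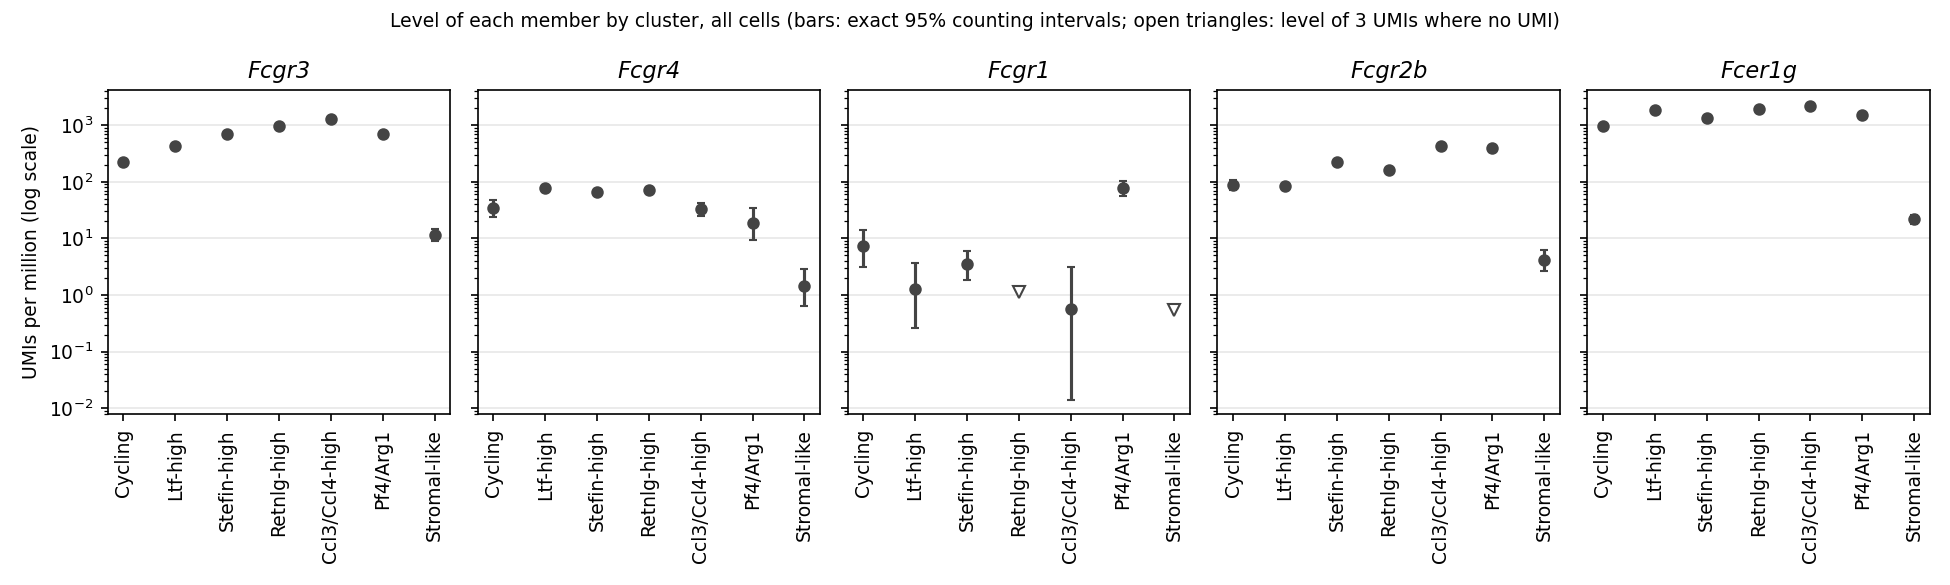
Level in CPM of each member (log axis) by cluster over all cells; points are levels, bars exact 95% counting intervals, and open triangles the level of 3 UMIs where no UMI was found. Fcgr3 runs from 220 in cycling to 1257 in Ccl3/Ccl4-high cells, Fcgr1 is at 76.4 in the Pf4/Arg1 cluster and at 7.22 or less elsewhere, and every member is at 21.9 or less in stromal-like cells.

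The balance was measured as the activating percent, the UMIs of Fcgr1, Fcgr3 and Fcgr4 as a percent of those of all 4 receptors. Counts of 3′ transcript ends do not grow with transcript length, so UMIs of the 4 genes could be added. The activating percent was 86.7% (85.5 to 87.9) in Retnlg-high and 85.8% (83.8 to 87.6) in Ltf-high cells, which overlapped. It was lower in stefin-high cells at 77.2% (75.8 to 78.5), in Ccl3/Ccl4-high cells at 74.9% (73.3 to 76.4) and in cycling cells at 74.7% (70.1 to 79.0), which overlapped each other. The Pf4/Arg1 cluster had the lowest value at 67.4% (63.7 to 70.9), which overlapped that of cycling cells. Within OVX cells its value of 64.3% (57.8 to 70.4) also overlapped that of Ccl3/Ccl4-high cells at 72.2% (70.1 to 74.3). Over all cells there were 6.53 activating UMIs for each Fcgr2b UMI in Retnlg-high cells, 2.98 in Ccl3/Ccl4-high cells and 2.07 in the Pf4/Arg1 cluster. Within OVX cells the stefin-high value of 76.8% (75.3 to 78.2) was below both the Ltf-high value of 83.8% (79.7 to 87.3) and the Retnlg-high value of 84.1% (81.7 to 86.3), so there the balance did not follow the order of the late neutrophil genes. The secondary granule genes of OVX cells were likewise lower in stefin-high than in Retnlg-high cells. Within sham cells the stefin-high value of 83.1% (78.0 to 87.4) overlapped those of Ltf-high cells at 87.1% (84.6 to 89.4), Retnlg-high cells at 88.0% (86.5 to 89.4) and Ccl3/Ccl4-high cells at 78.4% (76.0 to 80.7). The summed receptor level ran in the order of the late neutrophil genes in both conditions, from 488 to 1713 CPM in OVX and from 657 to 1730 CPM in sham.

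The cycling cells were not of one kind. In 7 of the 65 cells at least 10 UMIs of Cd74, an antigen presentation gene, were counted, and S100a8 was at 561 CPM there against 83599.7 CPM in the other 58. The activating percent was 36.4% (17.2 to 59.3) in the 7 cells, from 8 activating and 14 Fcgr2b UMIs, and 77.0% (72.4 to 81.3) in the 58.

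Fcer1g was the most abundant member in every group. Its level was 947 CPM (890 to 1006) in cycling, 1312 (1275 to 1349) in stefin-high, 1521 (1421 to 1625) in the Pf4/Arg1 cluster, 1875 (1820 to 1932) in Ltf-high, 1889 (1837 to 1942) in Retnlg-high and 2174 (2106 to 2244) in Ccl3/Ccl4-high cells. Over all cells the Ltf-high and Retnlg-high levels alone overlapped, but the order differed by condition. In OVX the Ltf-high level of 1318 CPM (1240 to 1400) overlapped the stefin-high level of 1325 (1286 to 1366) and was below the Retnlg-high level of 1571 (1491 to 1655), and the Pf4/Arg1 cluster at 2004 (1797 to 2228) overlapped the Ccl3/Ccl4-high cells. In sham the Ltf-high level was 2105 CPM (2024 to 2187), overlapping the Retnlg-high level of 2048 (1977 to 2121), and the Pf4/Arg1 cluster at 1315 (1202 to 1436) overlapped the stefin-high cells at 1353 (1235 to 1479). The chain stood at 3.69 UMIs (3.46 to 3.94) for each activating receptor UMI in Ltf-high cells and 3.62 (3.17 to 4.13) in cycling cells, against 1.90 (1.70 to 2.13) in the Pf4/Arg1 cluster, 1.81 (1.73 to 1.90) in Retnlg-high, 1.72 (1.64 to 1.80) in stefin-high and 1.68 (1.60 to 1.77) in Ccl3/Ccl4-high cells. Ltf-high cells had the higher ratio than stefin-high, Retnlg-high and Ccl3/Ccl4-high cells in both conditions. Other receptors use the same chain, so these ratios are not a stoichiometry of the Fc receptors.

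**Figure D2:**
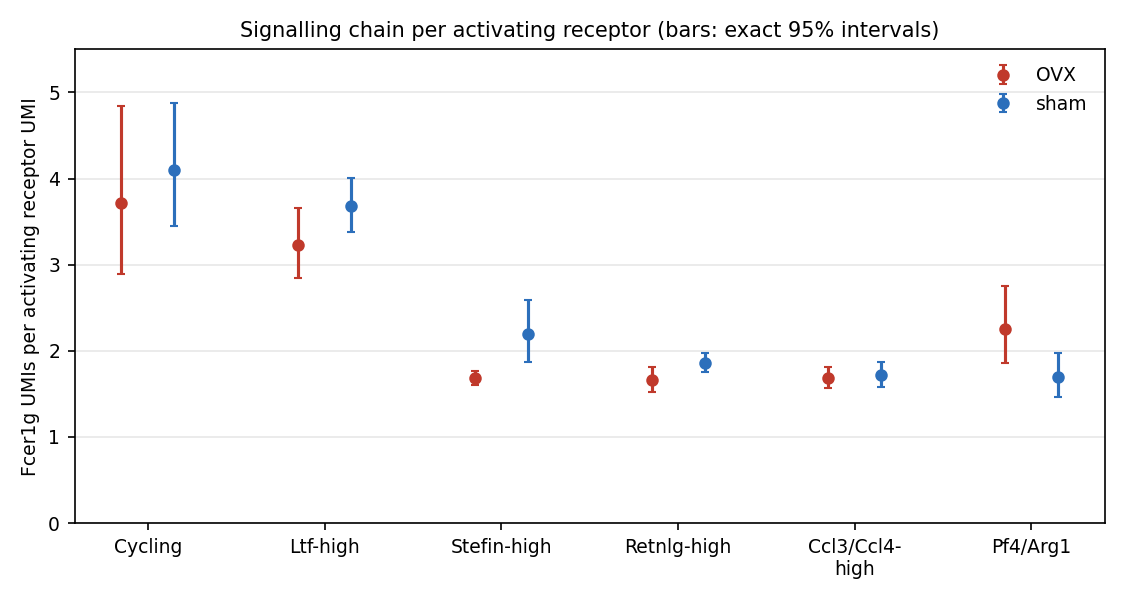
Fcer1g UMIs per activating receptor UMI in OVX and sham cells of each cluster, with exact 95% intervals as bars. Cycling and Ltf-high cells sit between 3.22 and 4.10 in both conditions and the other clusters between 1.66 and 2.26.

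The stromal-like cells were used to measure the background, taken here as free RNA in the droplets. Its source was not tested. It was not even over the cells, since the top 3 of the stromal-like cells held 52.2% of their 23 Fcgr2b UMIs and 30.2% of their 63 Fcgr3 UMIs. For Fcer1g the top 3 held 13.3% of 120 UMIs. In the stromal-like cells Fcgr3 was at 11.5 CPM, Fcgr2b at 4.20 and Fcer1g at 21.9, and over the 5 members the stromal level was between 0 and 2.47% of that in the other cells. The stromal-like cells were deep, with a median of 19997 UMIs against 3993, which lowers this share. Per barcode they held 0.30 Fcgr3 UMIs against 4.24 in the other cells (7.08%), and over the members the share was between 0 and 11.3%, the highest being that of Fcgr4. Taking the CPM background off changed the Fcer1g UMIs per activating UMI of Ltf-high cells from 3.69 to 3.74, and taking it off per barcode, an alternative added after seeing the data, gave 3.87. Since the share of cells with a UMI depends on depth, each cell was thinned to 1000 UMIs, and 171 shallower cells were left out. A UMI of an activating receptor and of Fcgr2b were then found in the same cell in 25.4% (21.7 to 29.4) of Ccl3/Ccl4-high, 10.3% (7.97 to 13.1) of Retnlg-high, 10% (3.76 to 20.5) of Pf4/Arg1, 8.79% (6.41 to 11.7) of stefin-high, 2.15% (0.793 to 4.62) of Ltf-high (3.17% as the mean over all ways of thinning, and 5.73% in another draw) and 1.59% (0.0402 to 8.53) of cycling cells. In the stromal-like cells it was 0 of 198, which allows a share of up to 1.52%. In every cluster cells found with both kinds were fewer than those found with activating transcripts alone, 45.7% of Ccl3/Ccl4-high and 52.0% of Retnlg-high cells. Thinning lowers detection, since Fcgr2b was found in 50.7% of cells outside the stromal-like cluster before it and 20.5% after. These shares therefore do not show which receptors a cell carries. Independent detection would give both kinds in 25.3% of Ccl3/Ccl4-high, 9.97% of Retnlg-high and 8.60% of stefin-high cells, near the shares found.

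Within a cluster Fcgr2b was spread over cells with and without an activating UMI alike. In Ccl3/Ccl4-high cells it was found in 35.7% (30.8 to 40.9) of cells with an activating UMI and 35.4% (27.7 to 43.7) of those without. In stefin-high cells the shares were 19.4% (14.4 to 25.4) and 18.7% (14.2 to 24.0), and in Retnlg-high cells 16.6% (12.9 to 20.8) and 15.1% (10.6 to 20.5). The intervals overlapped in each cluster, so no separate sets of activating and inhibitory cells were detectable at this depth.

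**Figure D3:**
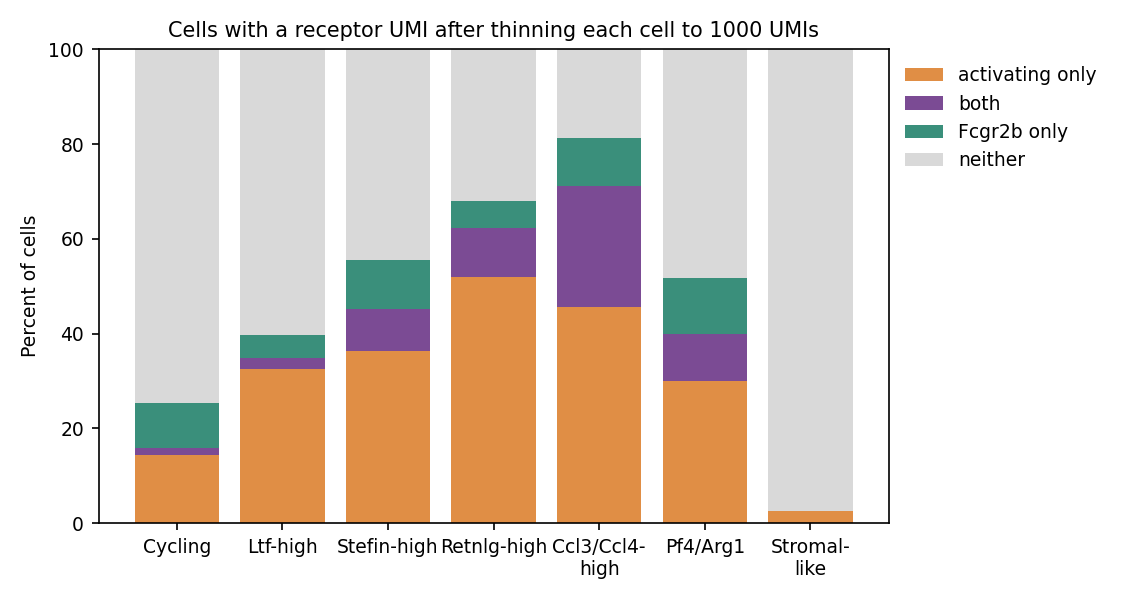
Percent of cells in each cluster with an activating receptor UMI only, with Fcgr2b only, with both or with neither, after each cell was thinned to 1000 UMIs. The share with both is 25.4% in Ccl3/Ccl4-high cells, 1.59% in cycling cells and 0 in stromal-like cells.

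Over all cells Fcgr2b was the member that differed most between conditions among those at 50 CPM or more. Its level was 208 CPM in OVX (198 to 218) and 127 in sham (119 to 136), a ratio of 1.64 (1.5 to 1.78). Fcgr3 was at 619 CPM (602 to 637) in OVX and 574 (556 to 593) in sham, a ratio of 1.08 (1.03 to 1.12), and Fcgr4 at 52.2 and 42.2 CPM, a ratio of 1.24 (1.06 to 1.45). Fcer1g was lower in OVX, at 1229.95 against 1399.7 CPM and a ratio of 0.879 (0.854 to 0.904). Fcgr1 had 22 UMIs in OVX and 40 in sham, a ratio of 0.456 (0.258 to 0.785), of which 8 and 30 were in the Pf4/Arg1 cluster.

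These pooled ratios mix level with the make-up of the pools, which differed. Stefin-high cells were 39.0% of OVX and 6.83% of sham cells, Retnlg-high cells 16.2% and 39.2%, and Ltf-high cells 8.88% and 15.4%. The stromal-like cells were 3.59% of OVX and 5.5% of sham cells, but held 1294160 of the 7798694 OVX UMIs and 1602909 of the 6462258 sham UMIs. Of the 210 stromal-like barcodes 112 carried neither hashtag and 6 both, so these shares rest on 38 OVX and 54 sham cells. Without the stromal-like cells the Fcgr3 ratio was 0.973 (0.932 to 1.02) and that of Fcgr2b 1.47 (1.35 to 1.60). At equal weights of the 5 neutrophil-like clusters, the ratio was 1.34 for Fcgr2b (log2 0.42, 0.23 to 0.62), 1.16 for Fcgr4 (log2 0.22, -0.13 to 0.56), 0.897 for Fcgr3 (log2 -0.16, -0.27 to -0.04) and 0.804 for Fcer1g (log2 -0.31, -0.37 to -0.26). The pooled direction of Fcgr3 thus turned with the make-up, and that of Fcer1g turned when hashtags were called by their share of hashtag UMIs (log2 0.05), while those of Fcgr2b and Fcgr4 kept their sign in 14 of 14 alternatives each. At equal cluster weights each of the 4 kept its sign in all 14.

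Fcgr2b was higher in OVX in 4 of the 5 neutrophil-like clusters. Its stefin-high level was 237 CPM in OVX cells (221 to 255) and 125 in sham cells (91.4 to 168), a ratio of 1.90 (1.40 to 2.62). The ratio was 1.27 (1.09 to 1.49) in Ccl3/Ccl4-high cells, from 476 and 373 CPM, and 1.61 (1.03 to 2.50) in cycling cells, from 113 and 70.5 CPM. Those 3 intervals excluded 1, and in cycling cells the log2 ratio went from 0.68 to 0.31 without the 7 cells with Cd74, a choice made after seeing the data. In Ccl3/Ccl4-high cells it went from 0.35 to 0.086 with 1000 variable genes. In Retnlg-high cells the ratio was 1.19 (0.970 to 1.47) and in Ltf-high cells 0.939 (0.677 to 1.29), which did not exclude it. The sign turned in 1 of 11 alternatives in Retnlg-high cells (log2 -0.16 when the members entered the clustering) and in 5 of 11 in Ltf-high cells. In the Pf4/Arg1 cluster it was 1.36 (1.03 to 1.80), from 16 OVX and 40 sham cells, and became 0.959 when each cell was given the same weight.

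Fcer1g was lower in OVX in 4 of the 5 neutrophil-like clusters beyond counting error. The largest difference was in Ltf-high cells, at 1318 against 2105 CPM and a ratio of 0.626 (0.583 to 0.673), followed by Retnlg-high cells at 0.767 (0.720 to 0.817), cycling cells at 0.801 (0.696 to 0.920) and Ccl3/Ccl4-high cells at 0.893 (0.837 to 0.953). In the Ltf-high cells late neutrophil genes summed to 1785 CPM in OVX and 2735 in sham, and stefin genes to 7895 and 4785 CPM. The part of these differences in the Ltf-high ratios of Fcer1g and Fcgr3 was not tested. At equal weight per cell the cycling difference was gone (log2 0.0059). In stefin-high cells the ratio was 0.979 (0.892 to 1.08), with alternatives from log2 -0.25 to 0.29. In the Pf4/Arg1 cluster Fcer1g was higher in OVX, 2004 against 1315 CPM, with a ratio of 1.52 (1.32 to 1.75), and neutrophil markers there summed to 54361 CPM in OVX and 13530 CPM in sham. The part of this difference in the Fcer1g ratio was not tested.

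Fcgr3 was lower in OVX in Ltf-high cells, 330 against 489 CPM and a ratio of 0.674 (0.582 to 0.780), in Retnlg-high cells at 0.841 (0.771 to 0.917) and in Ccl3/Ccl4-high cells at 0.901 (0.826 to 0.982). In cycling cells the ratio was 0.883 (0.647 to 1.19). Stefin-high cells were the exception, with 716 CPM in OVX and 557 in sham and a ratio of 1.29 (1.11 to 1.49). This exception was not stable to the clustering, since its log2 ratio of 0.36 became 0.0032 with 1000 variable genes and 0.077 when barcodes under 500 genes or over 10% mitochondrial UMIs were left out. The 67 sham cells there had a median of 3005 UMIs against 6208 in the 413 OVX cells, and secondary granule genes summed to 17568 CPM in sham and 5548 in OVX. The part of these differences in the stefin-high ratios was not tested. Fcgr4 ratios ran from 0.952 to 1.5 over the 5 clusters and every interval held 1, and in cycling, Ltf-high and stefin-high cells the sign changed in some alternatives.

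**Figure D4:**
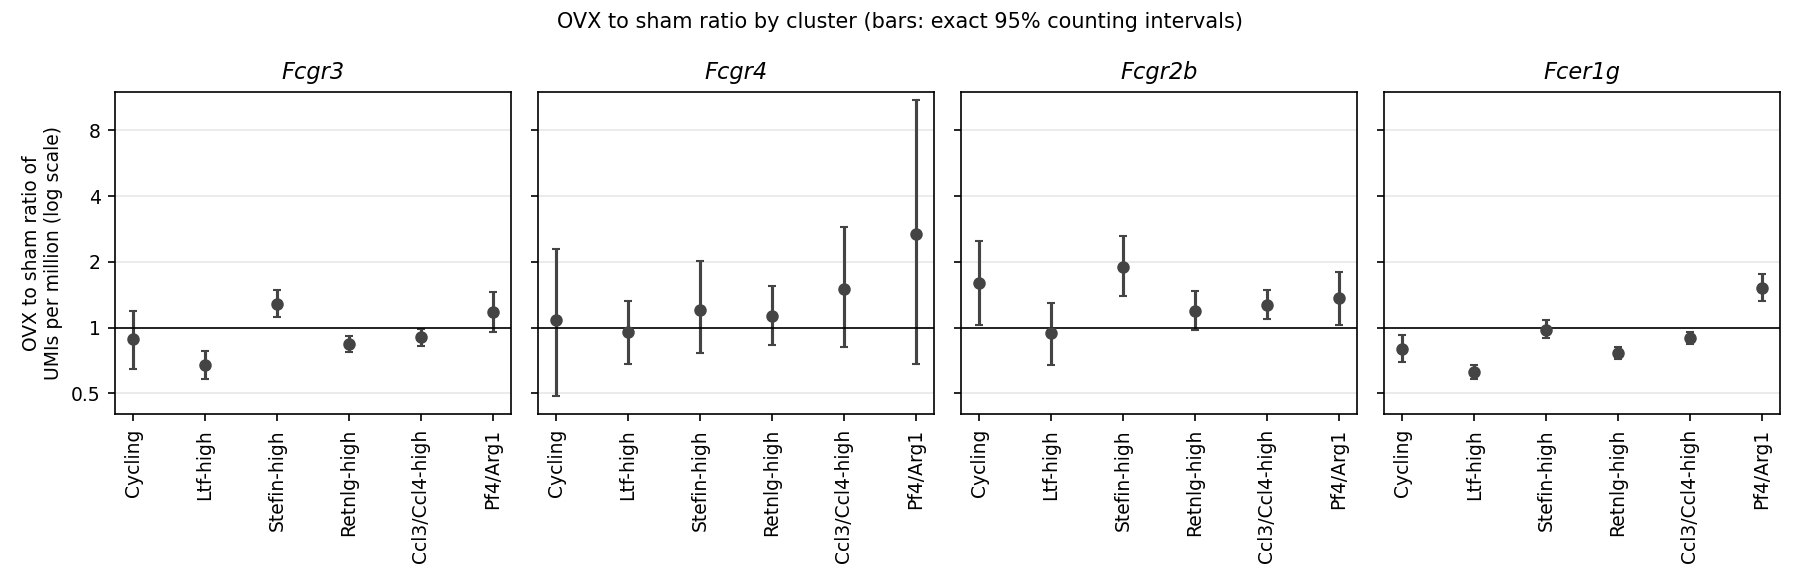
OVX to sham ratio of CPM (log axis) for 4 members in each cluster, with exact 95% counting intervals as bars and a line at a ratio of 1. Fcgr2b lies above 1 in every cluster but the Ltf-high, at 0.939, and Fcer1g lies below 1 in every cluster but the Pf4/Arg1, at 1.52.

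A difference of 1.5-fold or more was used to set the members beside the other genes. Over all cells 1 of the 4 members at 50 CPM or more in either condition, Fcgr2b, was past it and higher in OVX and none was lower, where 5.33% of 2833 such genes were higher and 17.4% were lower. In the Retnlg-high cells 0 of 4 were past it, where 5.43% of genes were higher and 7.52% lower. In the Ccl3/Ccl4-high cells 0 of 3 were past it, where 13.9% were higher and 9.07% lower. In the stefin-high cells 1 of 4, again Fcgr2b, was higher and none lower, where 18.9% of genes were higher and 14.1% lower. The median log2 ratio of the genes was -0.15 over all cells, -0.11 in Retnlg-high, 0.04 in Ccl3/Ccl4-high and 0.03 in stefin-high cells, against 0.21, -0.03, -0.15 and 0.32 for the members. Set against the median gene, Fcgr2b was 0.86 higher in OVX on the log2 scale over all cells and Fcer1g was at -0.04.

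The activating percent was lower in OVX in each of the 6 clusters, although in Retnlg-high cells it was 0.606 points higher when the members and listed genes entered the clustering, and in the Pf4/Arg1 cluster 7.88 points higher at equal weight per cell. Over the neutrophil-like cells it was 76.9% (75.9 to 77.9) in OVX and 84.5% (83.4 to 85.6) in sham, a difference of -7.59 points. In Ccl3/Ccl4-high cells it was 72.2% and 78.4%, a difference of -6.20 points (-9.36 to -2.99), in stefin-high cells 76.8% and 83.1%, -6.28 points (-10.8 to -1.02), and in Retnlg-high cells 84.1% and 88.0%, -3.92 points (-6.70 to -1.24). In Ltf-high cells the difference was -3.39 points (-7.99 to 0.918) and in the Pf4/Arg1 cluster -3.88 points (-11.7 to 3.80), and both intervals held 0. In cycling cells it was 66.1% against 78.0%, -11.9 points (-22.7 to -1.48), and it was -5.12 points without the 7 cells with Cd74. Ovariectomy and pool cannot be told apart here.

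To set the cluster make-up beside the level, the clusters of each condition were weighted by the make-up of the other. Sham levels gave 84.5% at the sham make-up and 82.9% at the OVX make-up, and OVX levels gave 79.0% and 76.9%. In this weighting the OVX value was below the sham value at either make-up of the clusters. Differences in make-up inside a cluster, such as those in granule genes given above, count as level here. Make-up and level were therefore not fully separated, and the weighting was not repeated under other clusterings.

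**Figure D5:**
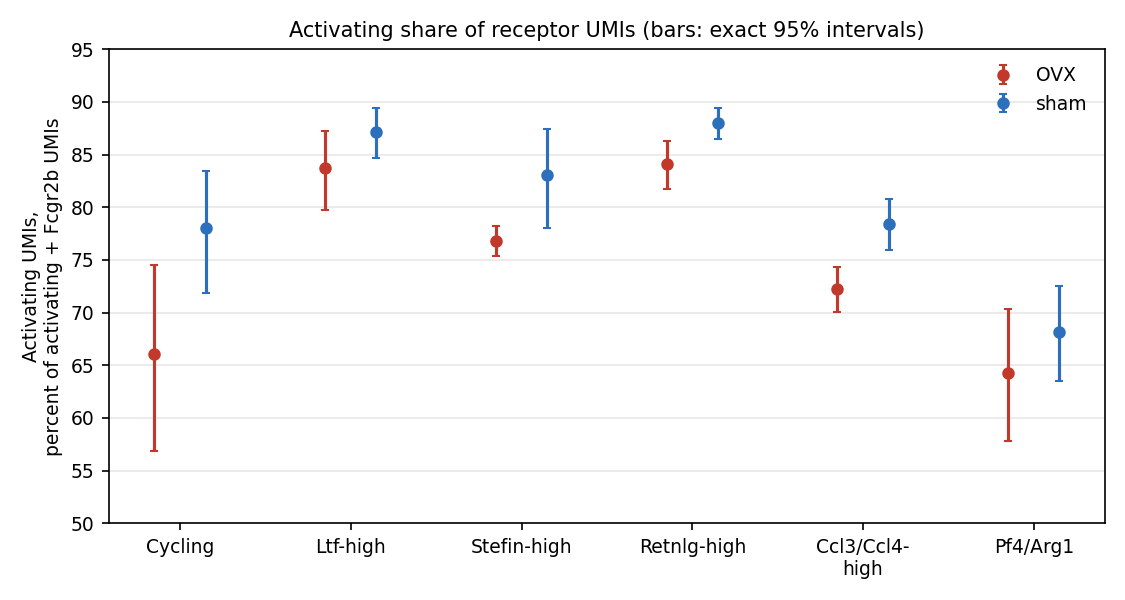
Activating share of the receptor UMIs in percent, in OVX and sham cells of each cluster, with exact 95% intervals as bars and an axis that starts at 50. The OVX value lies below the sham value in all 6 clusters, from 3.39 points lower in Ltf-high to 11.9 points lower in cycling cells, and the intervals overlap in 4 of the 6.

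The kinases and adaptors that act at the ITAM were examined as a list of 16 genes. Of these, 9 were at 50 CPM or more in either condition, the rule by which this list and those below were counted. The levels of the highest genes are over all cells. The highest were the protein kinase Prkcd, at 197 CPM, and the kinase Syk, which docks to the phosphorylated ITAM, at 183 CPM. Past 1.5-fold and higher in OVX were 2, Fgr, a Src family kinase, at 146 and 94.5 CPM (ratio 1.54), and Vav1, a signalling protein that Syk family kinases phosphorylate, at 53.0 and 34.5 CPM (1.53). None was lower, and the median log2 ratio was 0.14. In the Retnlg-high cells 1 of 12, the adaptor Gab2, was lower (0.543). In the Ccl3/Ccl4-high cells 1 of 11, Fgr, was higher (1.59). In the stefin-high cells 3 of 11 were higher, Vav1 (2.56), Gab2 (1.69) and Pik3cd (1.5), from 9, 11 and 12 sham UMIs. Of all genes 5.33% were higher and 17.4% lower over all cells, and 5.43% and 7.52% in Retnlg-high cells. The shares were 13.9% and 9.07% in Ccl3/Ccl4-high and 18.9% and 14.1% in stefin-high cells. The counts of this list and those below are to be read beside these shares. Syk itself was lower in OVX in Ltf-high cells (0.692) and Retnlg-high cells (0.75) and was at 0.989 in Ccl3/Ccl4-high cells. In stefin-high cells it was higher, at 250 CPM (233 to 268) in OVX and 173 (132 to 221) in sham (1.45), and over all cells the ratio was 1.09.

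Of 8 phosphatases and adaptors that act at the ITIM, 4 were at 50 CPM or more, and none was past 1.5-fold over all cells (median log2 0.09) or in the Retnlg-high cells. The highest were the tyrosine phosphatase Ptpn6, at 106 CPM with a ratio of 1.08, and Inpp5d, the lipid phosphatase that acts below Fcgr2b, at 77.3 CPM with a ratio of 1.06. In the Ccl3/Ccl4-high cells 1 of 4, Csk, a kinase that restrains Src family kinases, was higher in OVX (1.83). In the stefin-high cells 2 of 5 were lower, Dok2 (0.339) and Ptpn6 (0.586).

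Other receptors that signal through the Fcer1g chain differed in single members. Of 7, 4 were at 50 CPM or more, led by the C-type lectin Clec4d at 747 CPM and by Pira2 at 412 CPM. Clec4e, a lectin that senses mycobacterial glycolipid and dying cells, was past 1.5-fold over all cells, at 160 CPM in OVX and 90.4 in sham (1.77), and in the Retnlg-high (1.82), Ccl3/Ccl4-high (1.63) and stefin-high cells (5.35, from 164 and 30.6 CPM). Clec4e was lower in OVX in the Ltf-high (0.558) and cycling cells (0.630). In the stefin-high cells Clec4n (3.63) and Clec4d (1.95) were also higher, so 3 of 4 were past it there, none lower. Nfam1, first placed in this list, carries an ITAM of its own and is not counted. Its ratio was 1.70 in Ccl3/Ccl4-high cells.

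Tyrobp, the other ITAM adaptor of myeloid cells, was at 1595 CPM over all cells, and its list of 7 adaptors and partners held 5 at 50 CPM or more. The ratio of Tyrobp was 1.14 over all cells, 0.909 in Retnlg-high and 1.22 in Ccl3/Ccl4-high cells. Hcst, which encodes the adaptor DAP10, was higher in OVX at 102 and 61.0 CPM (1.67), and Trem3, a receptor that pairs with Tyrobp, lower at 61.9 and 94.5 CPM (0.655). In the stefin-high cells both were past 1.5-fold in the same directions (2.62 and 0.482), in the Retnlg-high cells Trem3 was lower (0.597), and in the Ccl3/Ccl4-high cells Hcst was higher (1.73).

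None of 7 other genes for immunoglobulin binding, among them Fcgrt (the neonatal Fc receptor), Fcmr (the IgM receptor) and Fcer2a (the low affinity IgE receptor), reached 50 CPM over all cells or in the 3 largest clusters. Of 7 genes for complement receptors or regulators 4 reached it, led by Itgam, which encodes the CD11b used in the sort, at 1196 CPM (ratio 1.03) and C5ar1 at 270 CPM (1.21). None was past 1.5-fold over all cells. C5ar2, a second C5a receptor, was higher in OVX in Retnlg-high (1.55) and Ccl3/Ccl4-high cells (1.76), and Cr1l in stefin-high cells (2.16).

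Cytokines are known to shift the receptor balance, interferon-gamma towards activating receptors and interleukin-4 towards Fcgr2b. Of 10 cytokine receptors and factors of this kind 6 were at 50 CPM or more, led by Csf3r, the G-CSF receptor, at 508 CPM and the transcription factor Spi1 at 211 CPM (ratio 1.33). Csf3r was at 789 CPM in OVX and 360 in sham (2.19) and Il4ra, the interleukin-4 receptor alpha chain, at 92.7 and 49.1 CPM (1.89), and none was lower. Il4ra was past 1.5-fold in the Retnlg-high (1.91), Ccl3/Ccl4-high (1.99) and stefin-high cells (2.74). Csf3r was past it in the stefin-high (3.44) and Ccl3/Ccl4-high cells (1.56) and not in the Retnlg-high cells (1.16). Ifngr1, a chain of the interferon-gamma receptor, was higher in the Ccl3/Ccl4-high cells (1.66). Whether any of these genes bears on the receptor balance was not tested. The ratios in stefin-high cells carry the difference in depth and in granule genes given above for the sham cells of that cluster.

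Patterns were compared over 14 sums of cells, the 7 clusters in each condition, on the log2(CPM + 10) scale among 2667 genes. The genes most like Fcgr3 were Emilin2 (r = 0.996), Ccr1, Cd200r1, Tes and Cd53, those most like Fcgr2b were Il1b (r = 0.986), Slc11a1, Pla2g7, Prkcd and Stx7, and those most like Fcer1g were Tyrobp (r = 0.992), Gnai2, Lyn, Slfn2 and Lcp1. The correlation of Fcgr3 with Fcgr2b was 0.927. All points came from 1 library, and the low stromal-like sums weighed on every value. Without them, over 12 sums, Il1b stayed first for Fcgr2b (r = 0.972), followed by Runx1, Nfkbia, Picalm and Ctsb, while Fcgr3 was most like Arg2 (r = 0.992), Gabarap, Ndel1, Klf6 and Litaf, and Fcer1g like Adprh (r = 0.923), Herc1, Smim3, Tes and Lyn. The correlation of Fcgr3 with Fcgr2b was then 0.749 and that of Fcer1g with Fcgr2b 0.50. These are descriptions of level across clusters.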

How the data were processed

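Single cell 3′ libraries (Chromium v3.1) were sequenced and counted by the authors with Cell Ranger against mm10. The submitters' processing notes name version 6.0.1 and the deposited matrix header names 6.0.0. The deposited values are raw UMI counts per gene and barcode, 17681092 in all, and the median was 4387 per barcode. Hashtags were called with HTODemux in Seurat 5.3.0 (R 4.3.3, positive quantile 0.99). No barcode was left out of the main values. Barcodes with both hashtags or neither entered no condition, and no other doublet filter was applied, because Scrublet marked 1 doublet.

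Cells were clustered with scanpy 1.11.5 and igraph 0.11.9 (Louvain, 2000 variable genes, 30 principal components, 15 neighbors, resolution 0.3) after 68 genes, the members and 63 listed genes, were left out. The resolution was the lowest tried that gave 6 groups. Each alternative clustering was made to give 6 in the same way, so the number of groups was not itself varied. The largest immature group was then split at a resolution of 0.15 into 3, a number chosen after a split into 2 had separated only low-depth barcodes. UMIs were summed per cluster and condition and scaled to CPM. Intervals of CPM are exact Poisson, those of percents Clopper-Pearson and those of single ratios or folds binomial split intervals, computed with scipy 1.17.1. Those of differences in activating percent and of ratios at equal cluster weights combine the limits of the conditions or clusters and are not exact. The CPM and ratio intervals were tested on simulated counts with counting error only. Spread between cells or mice was not simulated.

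The members, lists, clusters and measures were chosen with earlier results of these data known. Named genes were the members, the 2 at the highest CPM of each list with those past 1.5-fold, and the 5 most similar patterns for each member at 50 CPM or more. Syk and Clec4e were also given in further clusters, and the Cd74 cells, the values without stromal-like cells, the exact thinning shares and free RNA taken off per barcode were added, and Nfam1 was left out of its list, after values were seen. Coordinates and sequences were read from the GRCm38 annotation. Alternatives changed the hashtag rule, barcode filter, clustering, cell weighting, scaling, thinning and free RNA.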

Additional observations from a re-analysis of the deposited data

Results flagged for a closer look

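Fcgr3 differed between OVX and sham in opposite directions in different clusters. The OVX to sham ratio was 1.29 in stefin-high neutrophil-like cells, against 0.674 in Ltf-high, 0.841 in Retnlg-high and 0.901 in Ccl3/Ccl4-high cells, and none of these 4 counting intervals held 1. The stefin-high difference was not stable to the clustering, at a log2 ratio of 0.36 that became 0.0032 with 1000 variable genes and 0.077 without barcodes under 500 genes or over 10% mitochondrial UMIs. The difference between clusters was not tested, since each condition was 1 pool. The stefin-high cluster was also the one whose sham cells were fewest among the 4 and shallowest against their OVX cells.

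Fcer1g was higher in OVX in the Pf4/Arg1 cluster, with a ratio of 1.52 from 16 OVX and 40 sham cells, and lower in 4 neutrophil-like clusters, at 0.801 in cycling, 0.626 in Ltf-high, 0.767 in Retnlg-high and 0.893 in Ccl3/Ccl4-high cells. This difference was not tested either.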

How the results depend on the processing

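No paired analysis was possible because each condition was 1 pool in 1 library. Of 892 values recomputed under an alternative, 724 stayed within their counting interval, 162 moved out of it and 6 turned direction where the interval had excluded no difference. Of 512 OVX to sham values, 26 more, in 8 results whose interval held no difference, changed sign, in Fcgr4 of cycling, Ltf-high and stefin-high, Fcgr2b of Ltf-high and Retnlg-high, Fcer1g of stefin-high and Fcgr3 of all neutrophil-like cells, and in the activating percent of the Pf4/Arg1 cluster (7.88 points at equal weight per cell). The activating percent was lower in OVX over all cells in 12 of 12 alternatives (-7.61 to -6.49 points), and Fcgr2b at equal cluster weights was higher in 14 of 14 (log2 0.31 to 0.50). The activating percent of cycling cells was 79.5 when members and listed genes entered the clustering, 79.3 with 1000 variable genes, 79.1 with 30 neighbors and 79.3 without doublets. With the members it was also 83.8 in Ltf-high and 88.8 in Retnlg-high cells, and with 1000 variable genes, where 55.3% of cells kept their cluster, 83.8 in Ltf-high, 83.9 in Retnlg-high and 82.8 in Ccl3/Ccl4-high cells. The barcode filter, which left out 185, gave 84.8 in Retnlg-high cells, and equal weight per cell gave 75.4 in stefin-high cells and 62.5 in the Pf4/Arg1 cluster. The pooled log2 ratio under equal weight per cell was -0.21 for Fcgr3, 0.47 for Fcgr2b and -0.32 for Fcer1g, and with a hashtag share of 80% (956 OVX and 1166 sham cells) 0.39 for Fcgr3, 0.54 for Fcgr4, 1.07 for Fcgr2b and 0.048 for Fcer1g. With median-of-ratios scaling it was 0.26 for Fcgr3, 0.86 for Fcgr2b and -0.036 for Fcer1g, and without stromal-like cells, chosen after seeing the data, -0.039 for Fcgr3, 0.56 for Fcgr2b and -0.33 for Fcer1g. At equal cluster weights Fcer1g was -0.38 with the barcode filter, -0.51 with 1000 variable genes, -0.20 at equal weight per cell and -0.24 with median-of-ratios scaling. Also turned, where the interval had excluded no difference, were Fcer1g in cycling cells (0.0059) and Fcgr2b in the Pf4/Arg1 cluster (-0.060) at equal weight per cell, and the activating percent of OVX over sham in Retnlg-high cells (0.606 points) when the members entered the clustering. Thinned to 500 UMIs, both kinds were found in 0.690% of Ltf-high, 3.53% of stefin-high, 3.69% of Retnlg-high, 9.64% of Ccl3/Ccl4-high and 3.28% of Pf4/Arg1 cells, and another seed gave 5.73% in Ltf-high cells. The causes were not tested, beyond fewer UMIs per cell in the thinned shares. Depth limits Fcgr1, with 69 UMIs, and Fcgr4 ratios.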
